A study of Homo sapiens with 6 samples.

Results

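CD52, MS4A1, CD38, FCER2, CD37 and CD5 encode surface proteins that are used to type chronic lymphocytic leukaemia (CLL) or as targets of therapeutic antibodies. All probes annotated to these 6 symbols were taken, whatever their values, which gave 9 of the 47323 probes listed. The probes were 3 for MS4A1, 2 for CD37 and 1 for each of the other genes. The arrays, Illumina beadchips, held RNA of Mec-1, an established CLL-like B cell line that carries SLAMF1 (the receptor CD150) on its surface per the labels. Of the 6 arrays, 3 were labelled as cells transfected with an shRNA against SLAMF1 (in a pGFP-V-RS plasmid) and 3 as cells transfected with a scrambled control shRNA. Both variants were grown in complete medium, and the replicates are called biological in the design text. Whether the replicates of a variant were separate clones or cultures of 1 transfected line is not given in the sources used here, so the tests weigh differences only against the spread among these arrays, which may be technical.

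The targeted transcript was not lower in the arrays labelled SLAMF1 shRNA. The probe of SLAMF1 read 8.70, 8.44 and 8.64 on the log2 scale in the arrays labelled SLAMF1 shRNA, against 8.26, 8.38 and 8.01 in the arrays labelled control (adjusted p = 0.171, limma). Its SLAMF1 reading therefore went against the label, and directions below are those of the labels. Replicate 2 of the arrays labelled SLAMF1 shRNA stood apart. It correlated with the others of its group at 0.928 or above, whereas replicates 1 and 3 correlated at 0.994 with each other and control arrays at 0.982 to 0.993 (across kept probes, which are not independent replicates). Of the marker genes of B cells, 7 of 8 were named on the array. Of these, 6 were detected on all 6 arrays, while PAX5 was detected on 1 array labelled SLAMF1 shRNA and on no control array. Of 8 T cell markers none was detected on all arrays, and CD3D, CD3E, CD7 and CD8A were not detected on any. CD2 was detected on 2 arrays labelled SLAMF1 shRNA and on all 3 control arrays (log2 difference -0.08, limma, adjusted p = 0.826). CD28 and TRAT1 were each detected on 2 arrays labelled SLAMF1 shRNA and CD3G on 1, with no control array for any of them. The summed normalized level of the T cell markers was 166 to 171 in the arrays labelled SLAMF1 shRNA and 157 to 166 in the control arrays, and that of 6 NK cell markers was 168 to 317 in the arrays labelled SLAMF1 shRNA and 126 to 136 in the control arrays. Of 3 kept NK cell markers, 1 was called higher and 0 lower. NKG7 was the called one (log2 difference 1.98, limma, adjusted p = 0.0162) and was detected on 2 of 3 control arrays. KLRF1 lay higher without a call (0.56, limma, adjusted p = 0.117) and was detected on no control array. GNLY went the other way without a call (-0.50, limma, adjusted p = 0.0792). GNLY was detected on all control arrays and on none labelled SLAMF1 shRNA. KLRF1 and GNLY were thus kept only through the group where they were high. The sum of 6 monocyte markers was 134 to 151 in the arrays labelled SLAMF1 shRNA and 128 to 134 in the control arrays. Of these markers CSF1R was called higher (0.82, limma, adjusted p = 0.0114). CSF1R was detected on no control array, so it was kept only through the group where it was high. Its difference was thus taken from control values below detection. The part of these markers in the results on the members was not tested.

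In mature B cells and in CLL, surface antigens divide by how they sit in the membrane and by what they bind. CD52 is a short peptide on a glycosylphosphatidylinositol (GPI) anchor and is the target of alemtuzumab. CD20, the product of MS4A1, spans the membrane several times and is the target of rituximab and obinutuzumab. CD38 is an ectoenzyme that consumes NAD, is read as a risk marker in CLL and is the target of daratumumab in myeloma. CD23, the product of FCER2, is the low-affinity receptor for IgE. CD5, a scavenger receptor family protein of T cells and some B cells, is typed together with CD23 to separate CLL from other B cell leukaemias. CD37 is a tetraspanin of mature B cells that has also served as an antibody target.

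The 6 genes did not move together. CD52 and 1 MS4A1 probe fell, CD38 and FCER2 rose, the CD37 probes did not pass the test, and CD5 was not detected. A probe was kept for testing if its detection p-value, its rank against the array's negative control probes, was under 0.05 on at least 3 of 6 arrays. Of the 9 probes 7 were kept, and in the fit over all 19073 kept probes 2 of them were called higher and 2 lower in the arrays labelled SLAMF1 shRNA. Of the 2 called higher, CD38 was kept only through the arrays labelled SLAMF1 shRNA, where it was high. Over all kept probes 9.24% were called higher and 9.42% lower. The groups did not overlap for any of the 7, as for 41.4% of all kept probes (19.6% with the arrays labelled SLAMF1 shRNA above and 21.8% with them below). Without replicate 2 of those arrays, 15.3% of kept probes were called higher and 15.6% lower, and of the members 2 were called higher and 3 lower. The median log2 difference was 0.37 over the 7 probes and -0.01 over all kept probes. In such bulk RNA, fewer cells with a transcript and less of it per cell cannot be told apart.

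**Figure D1:**
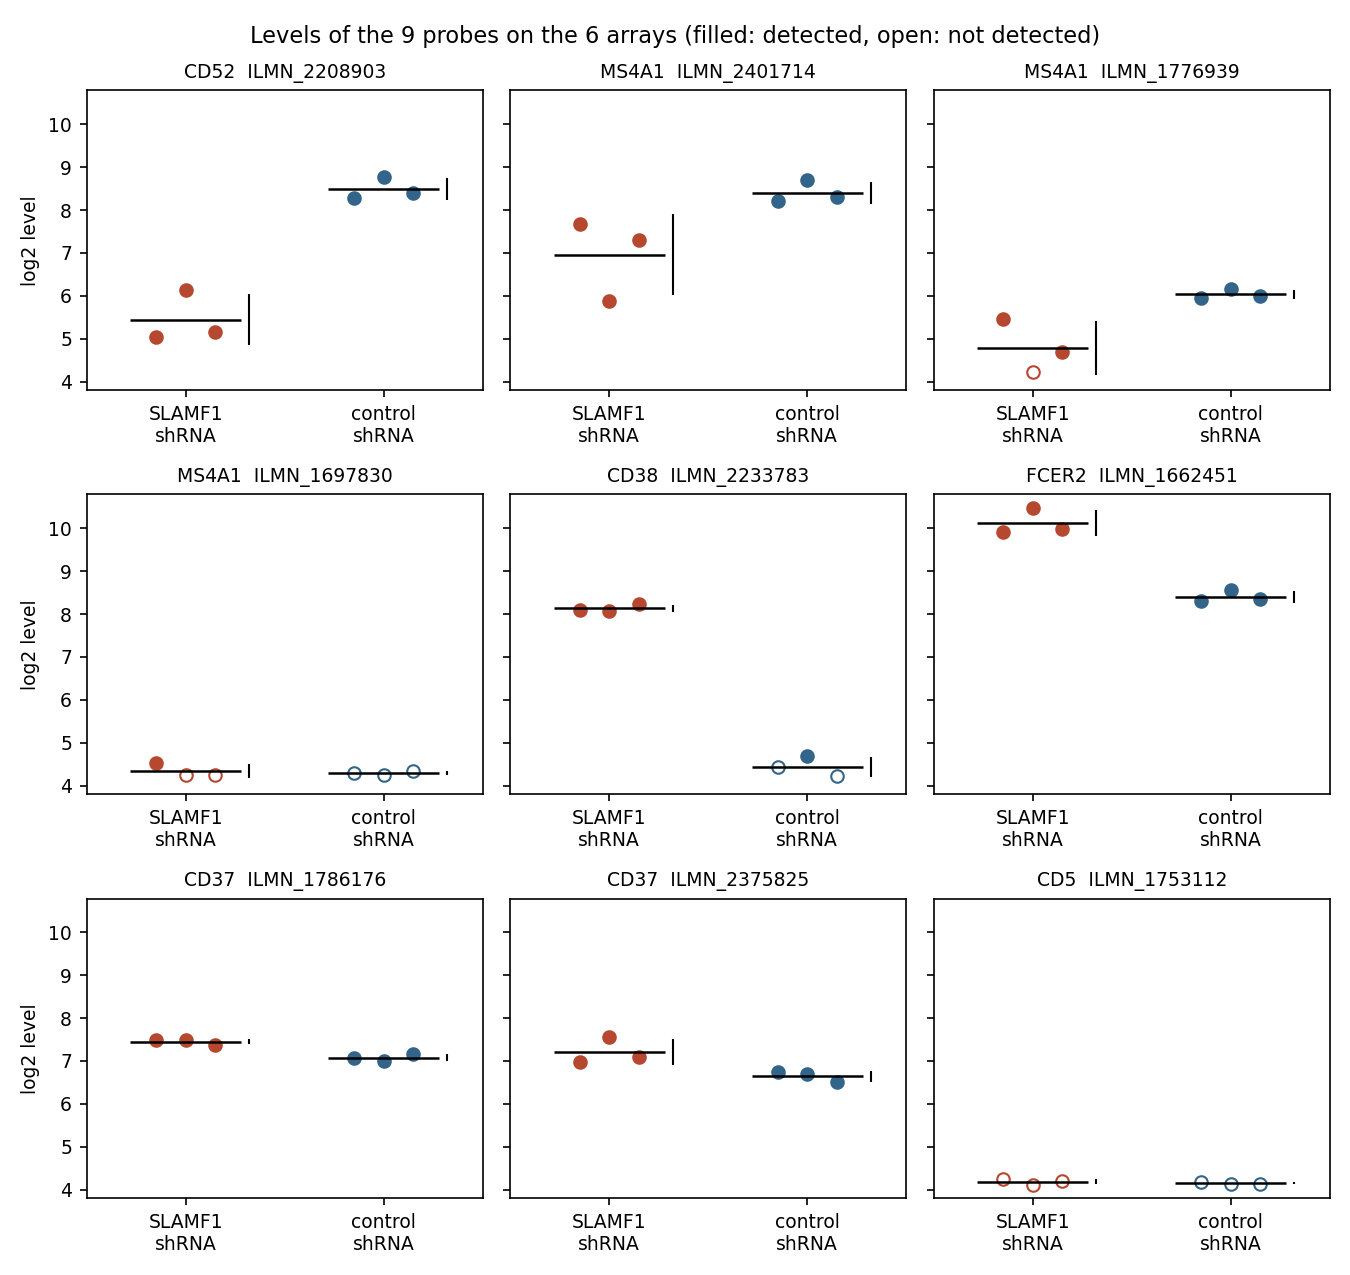
Background-corrected, quantile-normalized log2 levels (vertical axis) of the 9 probes on the 3 arrays labelled SLAMF1 shRNA (left, red) and the 3 control arrays (right, blue). Horizontal bars are means, vertical bars SD (n = 3), filled points are detected (detection p under 0.05) and open points are not. CD52 and the 2 brighter MS4A1 probes lie lower and CD38 and FCER2 higher in the arrays labelled SLAMF1 shRNA, while CD5 and the remaining MS4A1 probe lie at the bottom of the scale in both groups.

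CD52, the alemtuzumab target, was 8.25-fold lower in the arrays labelled SLAMF1 shRNA. Its probe (ILMN_2208903) gave deposited signals of 104, 112 and 105 in the arrays labelled SLAMF1 shRNA, against 480, 495 and 431 in the control arrays. All 6 values were detected, and the highest CD52 signal of the first group lay far below the lowest control value. The background-corrected log2 level of CD52 averaged 5.44 ± 0.60 in the arrays labelled SLAMF1 shRNA and 8.49 ± 0.25 in the control arrays (SD, n = 3 each). This is a log2 difference of -3.04 (SE 0.31, adjusted p = 0.000739 by limma). Within the group labelled SLAMF1 shRNA, replicate 2 read highest, at 6.13 on the log2 scale against 5.05 and 5.16 in replicates 1 and 3, and without it the difference was -3.39. The size depended on the background model: with none, the log2 difference was -1.91.

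The sequence before the start of CD52 is shown because this gene was called lower under every alternative run. The letters are the 250 bases that precede the RefSeq transcript start (GRCh38.p14, chr1:26317708-26317957, plus strand), read 5′ to 3′, with matches to the motifs named next in capitals.
CD52: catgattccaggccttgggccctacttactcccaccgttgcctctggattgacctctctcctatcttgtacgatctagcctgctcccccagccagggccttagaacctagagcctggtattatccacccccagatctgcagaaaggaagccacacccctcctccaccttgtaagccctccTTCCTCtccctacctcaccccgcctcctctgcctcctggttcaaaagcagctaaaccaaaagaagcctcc
The motifs searched, on both strands, were the octamer ATGCAAAT, the RBPJ motif TGGGAA, the PU.1 core GAGGAA, the E2A motif CAGGTG, the TATA motif TATAAA, and, given by name, the STAT, NF-kappaB and EBF1 motifs. CD52 held 1 match, to the PU.1 core, on the opposite strand at -70 to -65 from the start. Of 35116 RefSeq windows of the same length, 23.6% held that core. The windows of CD52, CD38 and FCER2, the members with a window in the table used, did not hold the octamer (1.63% of all windows), the TATA motif (10.7%) or the STAT (5.38%), NF-kappaB (0.179%) and EBF1 (1.06%) motifs, which says only that these letters are not in them. A match is a description of letters and no binding was measured.

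MS4A1, which encodes CD20, read below every control array on all arrays labelled SLAMF1 shRNA by 2 of its 3 probes, of which 1 passed the test, and the remaining probe was near background. The brightest probe (ILMN_2401714, annotated to transcript NM_021950) gave MS4A1 signals of 295, 105 and 230 in the arrays labelled SLAMF1 shRNA, against 461, 470 and 407 in the control arrays. Its log2 levels were 7.68, 5.89 and 7.29 in the arrays labelled SLAMF1 shRNA, against 8.21, 8.69 and 8.30 in the control arrays. The groups did not overlap, but the wide spread within the first left the difference of -1.45 (SE 0.43) just short of the threshold (limma, adjusted p = 0.0551). Replicate 2 read lowest. Without it the MS4A1 difference by this probe was smaller, -0.91, and passed, at an adjusted p of 0.00392. Over all alternatives of this probe the adjusted p ran from 9.85e-06 to 0.197.

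The second MS4A1 probe (ILMN_1776939, annotated to NM_152866) gave signals of 117, 81.4 and 94.4 in the arrays labelled SLAMF1 shRNA, against 151, 138 and 135 in the control arrays. Replicate 2 of the first group was not detected by this MS4A1 probe. Its level averaged 4.79 ± 0.63 in the arrays labelled SLAMF1 shRNA and 6.03 ± 0.11 in the control arrays on the log2 scale (SD, n = 3 each). This probe fell, with a log2 difference of -1.25 and a standard error of 0.30 (limma, adjusted p = 0.0280). With no background correction the difference of this MS4A1 probe was -0.48 and still called. Leaving out single arrays ended this call in 4 of 6 cases: control replicate 1 gave an adjusted p of 0.0864, control replicate 2 gave 0.106, control replicate 3 gave 0.100 and replicate 3 labelled SLAMF1 shRNA gave 0.0856. The 2 MS4A1 probes differed by 0.20 in their log2 differences, less than the standard error of either. Both took their lowest value in the same array, replicate 2, below replicates 1 and 3.

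The remaining MS4A1 probe (ILMN_1697830, also annotated to NM_152866) was detected only in replicate 1 of the arrays labelled SLAMF1 shRNA. Its signals were 91.9, 82.0 and 84.8 in the arrays labelled SLAMF1 shRNA, against 91.7, 84.2 and 86.7 in the control arrays. The groups overlapped, and the probe, not well above background, was not tested. Which part of MS4A1 each probe reads is not given in the sources used here.

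**Figure D2:**
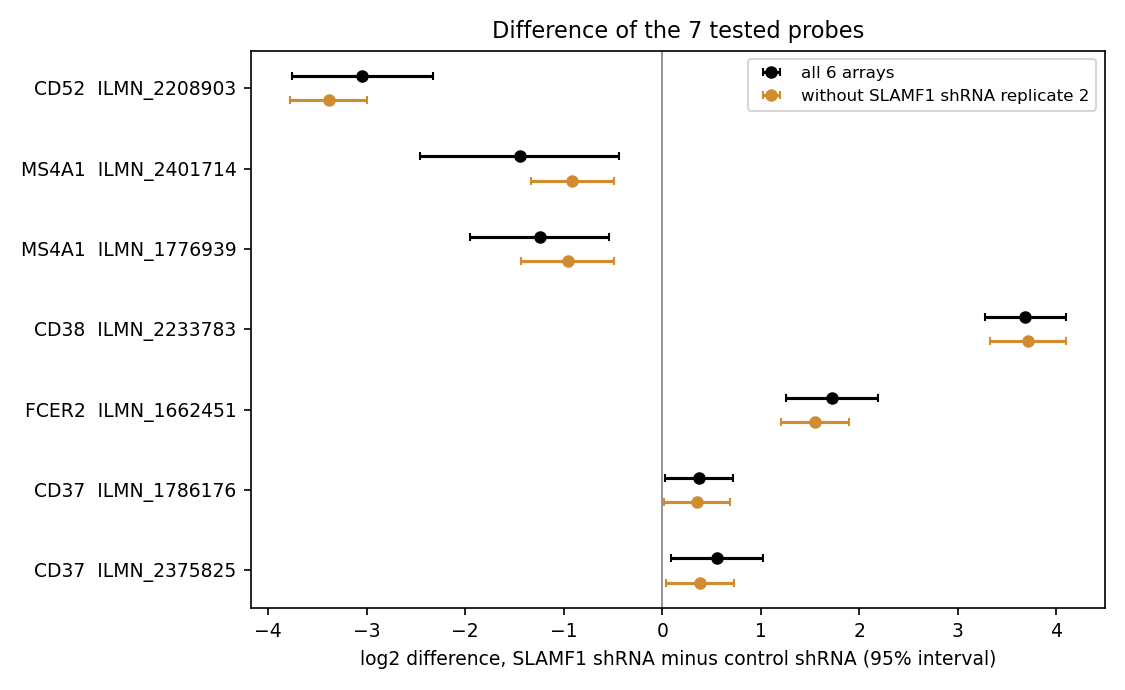
Log2 difference (horizontal axis, arrays labelled SLAMF1 shRNA minus control arrays) of the 7 tested probes, with 95% intervals from limma, over all 6 arrays (black) and without replicate 2 of the arrays labelled SLAMF1 shRNA (orange). The MS4A1 intervals narrow without that array and stay below 0, and CD38 keeps its place at 3.68 and 3.71.

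CD38, the NAD-consuming ectoenzyme, was 11.99-fold higher in the arrays labelled SLAMF1 shRNA, with control values below the lowest detected level set to that level. Its probe (ILMN_2233783) gave CD38 signals of 364, 243 and 370 in the arrays labelled SLAMF1 shRNA, against 95.2, 93.0 and 83.0 in the control arrays. It was detected on all 3 arrays of the first group and on 1 of 3 control arrays, so the control level lay at the edge of detection. That fold is a lower bound in this respect only and does not allow for the spread among arrays or the background model. After normalization replicate 2 no longer stood below its group, with log2 levels of 8.08, 8.08 and 8.23 for replicates 1, 2 and 3 labelled SLAMF1 shRNA. The CD38 level averaged 8.13 ± 0.09 in the arrays labelled SLAMF1 shRNA and 4.45 ± 0.23 in the control arrays (SD, n = 3 each). The fitted log2 difference of 3.68 (SE 0.18, 95% interval 3.27 to 4.10, adjusted p = 3.39e-05 by limma) rests on control values at that edge. The CD38 probe also met the detection filter only through the group where it was high, so these fitted values are given as a description. With no background correction the CD38 difference was 1.97.

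The 250 bases before the RefSeq start of CD38 (GRCh38.p14, chr4:15778078-15778327, plus strand) are shown because this gene was called higher under every alternative that tested it, with capitals as before.
CD38: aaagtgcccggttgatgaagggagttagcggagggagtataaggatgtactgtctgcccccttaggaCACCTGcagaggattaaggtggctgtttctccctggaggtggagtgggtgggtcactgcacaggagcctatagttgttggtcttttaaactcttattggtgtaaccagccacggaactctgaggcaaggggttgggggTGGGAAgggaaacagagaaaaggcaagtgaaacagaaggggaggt
They held the E2A motif on the opposite strand at -183 to -178, which 17.5% of all windows held, and the RBPJ motif at -45 to -40, which 20.8% held.

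FCER2, the IgE receptor CD23, was 3.30-fold higher in the arrays labelled SLAMF1 shRNA. The FCER2 probe (ILMN_1662451) gave signals of 1080, 1145 and 1047 in the arrays labelled SLAMF1 shRNA, against 482, 434 and 418 in the control arrays. Every array of the first group exceeded every control array by more than the range within either group. The FCER2 log2 levels were 9.91, 10.47 and 9.99 in the arrays labelled SLAMF1 shRNA, against 8.29, 8.55 and 8.35 in the control arrays. The log2 difference was 1.72 (SE 0.20, adjusted p = 0.00135 by limma). Replicate 2 read highest, at 10.47, and without it the difference was 1.55.

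RefSeq gives FCER2 2 starts, and the 250 bases before each are shown since the array has 1 FCER2 probe and cannot separate them (GRCh38.p14, minus strand, chr19:7702132-7702381 for the first and chr19:7699442-7699691 for the second).
FCER2 first start: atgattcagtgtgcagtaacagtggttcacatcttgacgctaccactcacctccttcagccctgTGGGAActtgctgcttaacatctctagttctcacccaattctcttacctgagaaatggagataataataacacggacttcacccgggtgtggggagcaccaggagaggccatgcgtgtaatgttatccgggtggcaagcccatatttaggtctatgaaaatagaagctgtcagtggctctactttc
FCER2 second start: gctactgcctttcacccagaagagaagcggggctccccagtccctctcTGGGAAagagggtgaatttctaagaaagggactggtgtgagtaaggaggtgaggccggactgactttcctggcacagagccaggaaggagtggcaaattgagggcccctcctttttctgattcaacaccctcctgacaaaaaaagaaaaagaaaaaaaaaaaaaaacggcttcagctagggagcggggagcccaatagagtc
Both held the RBPJ motif, at -186 to -181 in the first and at -202 to -197 in the second. Neither held another motif in the forms searched.

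CD37, the tetraspanin, was measured by 2 probes, both detected on all 6 arrays. The CD37 probe with the higher mean level (ILMN_1786176) averaged 7.45 ± 0.06 on the log2 scale in the arrays labelled SLAMF1 shRNA and 7.08 ± 0.07 in the control arrays (SD, n = 3 each). The groups did not overlap, but the difference of 0.37 (SE 0.15, 95% interval 0.03 to 0.72) did not pass (limma, adjusted p = 0.124). The other CD37 probe (ILMN_2375825) read 6.98, 7.56 and 7.08 in the arrays labelled SLAMF1 shRNA, against 6.75, 6.68 and 6.50 in the control arrays. Its difference of 0.56 (SE 0.20, 95% interval 0.09 to 1.02) did not pass either (adjusted p = 0.0948). The deposited signals of CD37 overlapped. By the first probe they were 266, 182 and 239 in the arrays labelled SLAMF1 shRNA, against 247, 194 and 220 in the control arrays. With arrays centred on their medians, which moved the median difference over all kept probes to -0.14, the CD37 differences were 0.10 and 0.30.

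CD5 was not detected on any of the 6 arrays by its 1 probe (ILMN_1753112). Its signals were 84.7, 75.7 and 83.3 in the arrays labelled SLAMF1 shRNA, against 86.2, 78.6 and 78.9 in the control arrays, and the detection p-values ranged from 0.436 to 0.991. The CD5 values overlapped between groups and have no interpretable fold. At this sensitivity a low CD5 transcript level cannot be told apart from none.

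The members were set beside genes of related function from 9 lists, counted by the brightest kept probe of each gene. By that count 11.9% of 10832 genes were called higher and 10.6% lower, with a median log2 difference of 0.02. Genes detected in 1 group alone, namely CD200, ITGAX, MS4A6E and CD6 among those named next, were kept only through the group where they were high. MS4A7 and NT5E, each detected on all 3 control arrays and on 1 array labelled SLAMF1 shRNA, also met the filter through the higher group. Differences and p-values of all these genes rest in part on values below detection. Of 13 tested targets of other antibodies, 4 were called higher and 1 lower (median log2 difference 0.41). CD22, a lectin that dampens the B cell receptor, was higher by a log2 difference of 2.37 (SE 0.33). CD79B, a signalling chain of that receptor, was higher by 1.83 (SE 0.23). CD200, an inhibitory ligand used in CLL typing, was detected on all control arrays and on none labelled SLAMF1 shRNA, where it was at least 1.84-fold lower (limma, adjusted p = 0.00202). With detection required on all arrays (p under 0.01), CD200 was not tested and the count of lower genes was 0.

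Of 17 tested antigens from wider B cell typing panels, 4 were called higher and 1 lower (median 0.36). CD79A, the partner chain of CD79B, rose by 1.93 on the log2 scale (SE 0.17), and its other probes gave 0.51 to 2.11. The integrin chain ITGAX (CD11c) was detected on no control array and was at least 2.65-fold higher in the arrays labelled SLAMF1 shRNA. CD27, a TNF receptor family member of memory B cells, averaged 9.49 ± 0.56 in the arrays labelled SLAMF1 shRNA and 7.89 ± 0.39 in the control arrays on the log2 scale (SD, n = 3 each). The CD27 call ended when control replicate 2 (adjusted p = 0.0642) or control replicate 3 (0.0688) was left out. Of the 6 kept B cell markers, 5 were called higher and none lower, but CD79A, CD79B and CD22 are among those 5 and also in these lists, so the counts share genes. The summed normalized level of the 7 B cell markers on the array, PAX5 included, was 5912 to 8173 in the arrays labelled SLAMF1 shRNA and 1877 to 2039 in the control arrays. The part of these markers in the results on the members was not tested. CD52 and 2 MS4A1 probes, of which 1 was called, thus lay lower in the arrays where CD79A, CD79B and CD22 were higher. The kept B cell marker that was not called, BLNK, had a difference below 0 (-0.26, limma, adjusted p = 0.268).

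Among the relatives of MS4A1, 14 of 17 were named on the array and 2 were kept. Both were called lower, but with detection required on all arrays (p under 0.01) the count of lower genes was 0. MS4A6E was detected on all control arrays and on none labelled SLAMF1 shRNA, where it was at least 2.11-fold lower. MS4A7 averaged 4.50 ± 0.11 in the arrays labelled SLAMF1 shRNA and 5.50 ± 0.10 in the control arrays on the log2 scale (SD, n = 3 each; limma, adjusted p = 0.00509), while its other probe gave a difference of -0.20. The called MS4A7 probe was detected on all 3 control arrays but on only 1 labelled SLAMF1 shRNA. MS4A7 and MS4A6E are the nearest tested genes on one side of MS4A1 on chromosome 11. Of the 20 tested genes nearest to MS4A1, 10 on each side in RefSeq order, 5 were called lower and 1 higher. A neighbour count was made for each member after these values were seen, and over all tested genes 11.9% were called higher and 10.6% lower. For CD52 on chromosome 1 1 of 20 was called, higher (median 0.11). For CD38 on chromosome 4 it gave 2 higher and 2 lower (median -0.18). For FCER2 on chromosome 19 5 of 20 were called, all higher, with 2 of 20 differences below 0 and a median of 0.62. For CD37, also on chromosome 19, it gave 5 higher and 2 lower (median 0.28). For CD5 it gave 2 higher and 6 lower (median -0.23), over a stretch of chromosome 11 that overlaps the one around MS4A1.

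Of 15 tested tetraspanins, the family of CD37, 4 were called higher and 2 lower (median 0.26). TSPAN12, a partner of Frizzled receptors, was lower, with a log2 difference of -2.25 (SE 0.17), with a second probe at -2.19. The first TSPAN12 probe was detected on all 3 control arrays and on 2 labelled SLAMF1 shRNA, so its lower level lay at the edge of detection. TSPAN31 (1.47, SE 0.20) and TSPAN4 (1.42, SE 0.28) were higher. The count of higher tetraspanins was 2, 1 and 1 without control replicate 1, 2 or 3, and the lower count was 1 without any 1 array other than replicate 2 of those labelled SLAMF1 shRNA. The TSPAN4 call ended when control replicate 2 (adjusted p = 0.0597) or control replicate 3 (0.0643) was left out.

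Of 9 tested partners of CD38 and CLL risk markers, 2 were called higher and 3 lower (median -0.04). NT5E (CD73), an ectoenzyme that makes adenosine downstream of nucleotide breakdown, was lower, with log2 levels of 4.43, 4.27 and 4.66 in the arrays labelled SLAMF1 shRNA against 6.40, 6.48 and 6.31 in the control arrays (limma, adjusted p = 0.000412). It was detected on all 3 control arrays but on only 1 labelled SLAMF1 shRNA, so its lower level lay at the edge of detection. The adhesion genes ITGB1 (1.58, SE 0.17) and CD44 (1.46, SE 0.17) were higher, with other probes at 0.46 and 0.72. With the mean of a gene's probes, ITGB1 (1.02, adjusted p = 0.0631) and CD44 (1.09, adjusted p = 0.0566) were not called. ITGA4 (CD49d), which pairs with ITGB1 and is read with CD38 as a CLL risk marker, gave a log2 difference of -0.04 (adjusted p = 0.962).

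Of 7 tested partners of CD23, 2 were called higher and 0 lower (median 0.05), and 1 was lower at an unadjusted p under 0.05 by limma. IL4R, the receptor chain for interleukin 4, which induces CD23 in B cells, rose by 1.55 (SE 0.18), and ITGAX, which binds CD23, is given above. CR2 (CD21), a ligand of CD23, gave a log2 difference of 0.01 (adjusted p = 0.988).

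Of 6 tested genes in a list of partners of CD5 and CD6 that includes CD6 itself, 1 was called higher and 2 lower (median 0.06). CD6, the related receptor encoded beside CD5, was at least 1.32-fold lower and not detected on any array labelled SLAMF1 shRNA. The ubiquitin ligase gene CBLB (1.12, SE 0.24) was higher and ALCAM (-0.54, SE 0.15), the ligand of CD6, was lower. These 3 calls were lost when single arrays were left out: CBLB without any 1 control array or replicate 3 of those labelled SLAMF1 shRNA, CD6 without control replicate 2 or 3 or replicate 1 or 3 of the other set, and ALCAM without any 1 array other than replicate 2 labelled SLAMF1 shRNA.

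Membrane inhibitors of complement, which limit killing by antibodies, were 3 tested genes, CD55, CD59 and CR1, with 0 called and 0 at an unadjusted p under 0.05 by limma (median 0.25). Without replicate 2 of the arrays labelled SLAMF1 shRNA, 1 of the 3 was called higher. Genes of GPI anchor synthesis, which CD52 needs to reach the surface, were 23 tested, with 5 called higher and 0 lower (median 0.14), and 2 lower at an unadjusted p under 0.05 by limma. PIGH (1.21, SE 0.19), GPAA1 (1.18, SE 0.22) and PIGQ (0.99, SE 0.23) had the largest differences among the 5 called. PIGW, not called, had a log2 difference of -2.16 (SE 0.68, adjusted p = 0.0647). The count of higher genes was 1, 3 and 2 without control replicate 1, 2 or 3, and 3 without replicate 3 of the arrays labelled SLAMF1 shRNA. GPAA1 lost its call without control replicate 1 or 3, and PIGQ without those or replicate 3 labelled SLAMF1 shRNA.

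**Figure D3:**
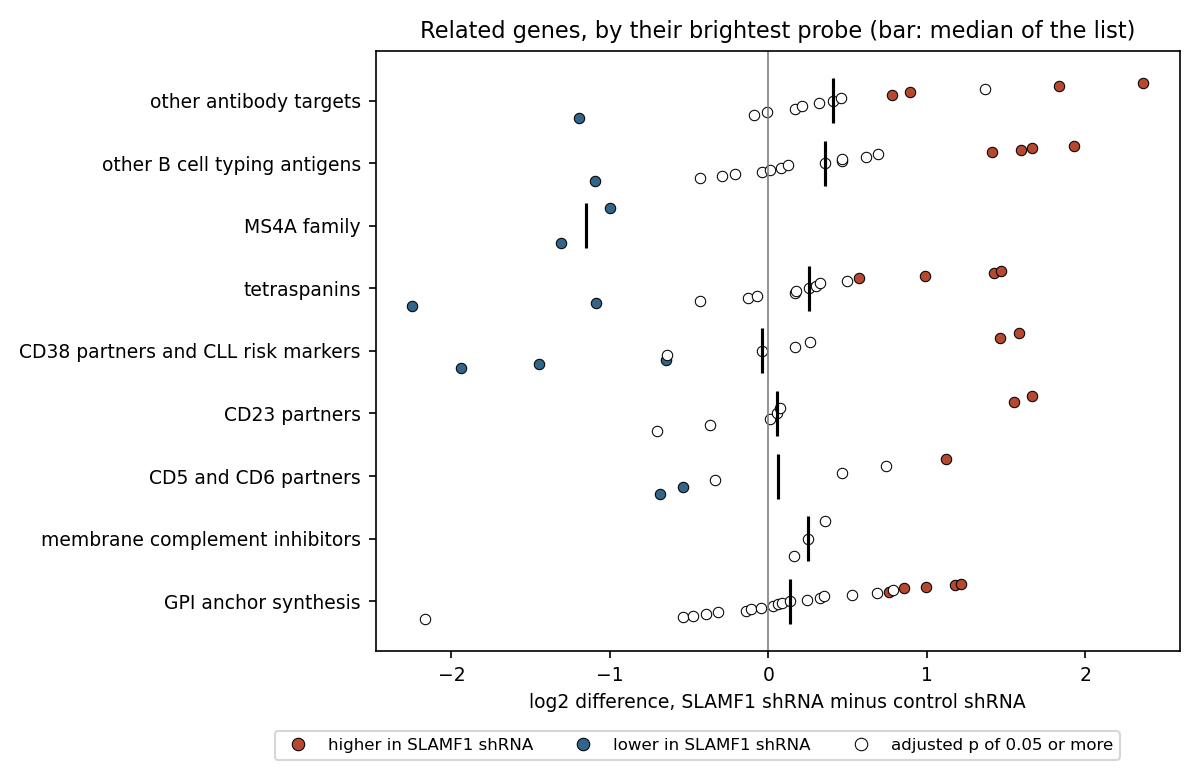
Log2 difference (horizontal axis, arrays labelled SLAMF1 shRNA minus control arrays) of each tested gene of the 9 related lists, by its brightest probe. Red points were called higher, blue lower and white not called, and bars are list medians. Both MS4A relatives lie below 0, and the other lists hold genes on either side except the complement inhibitors, whose 3 genes lie above 0 with no call.

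For each called member, the 3 named genes with the most similar profile over the 6 arrays were listed, by the root mean square difference (RMS) of log2 levels after each gene's own mean was subtracted. The measure includes the group difference itself and is given as a description. Nearest to CD52 were EOMES, a T-box transcription factor (RMS 0.25), INPP4B, a lipid phosphatase (0.27), and SDC1, the proteoglycan CD138 (0.31). Of all kept probes, 0.246% came within an RMS of 0.5 of CD52. Nearest to CD38 were the tyrosine kinase gene FGR (0.18), the adhesion receptor gene CEACAM1 (0.20) and the kinase gene PIM2 (0.25), with 0.210% of kept probes within 0.5. The profiles of FCER2 and of the called MS4A1 probe were shared more widely, with 7.47% and 15.7% of kept probes within 0.5. Nearest to FCER2 were RNU6ATAC, a minor spliceosome RNA (0.07), SV2B, a synaptic vesicle protein gene (0.08), and BAZ2B, a bromodomain gene (0.08). Nearest to MS4A1 were SYPL1 (0.11), the ketone body enzyme gene OXCT1 (0.13) and the DNA repair protease gene SPRTN (0.14).

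**Figure D4:**
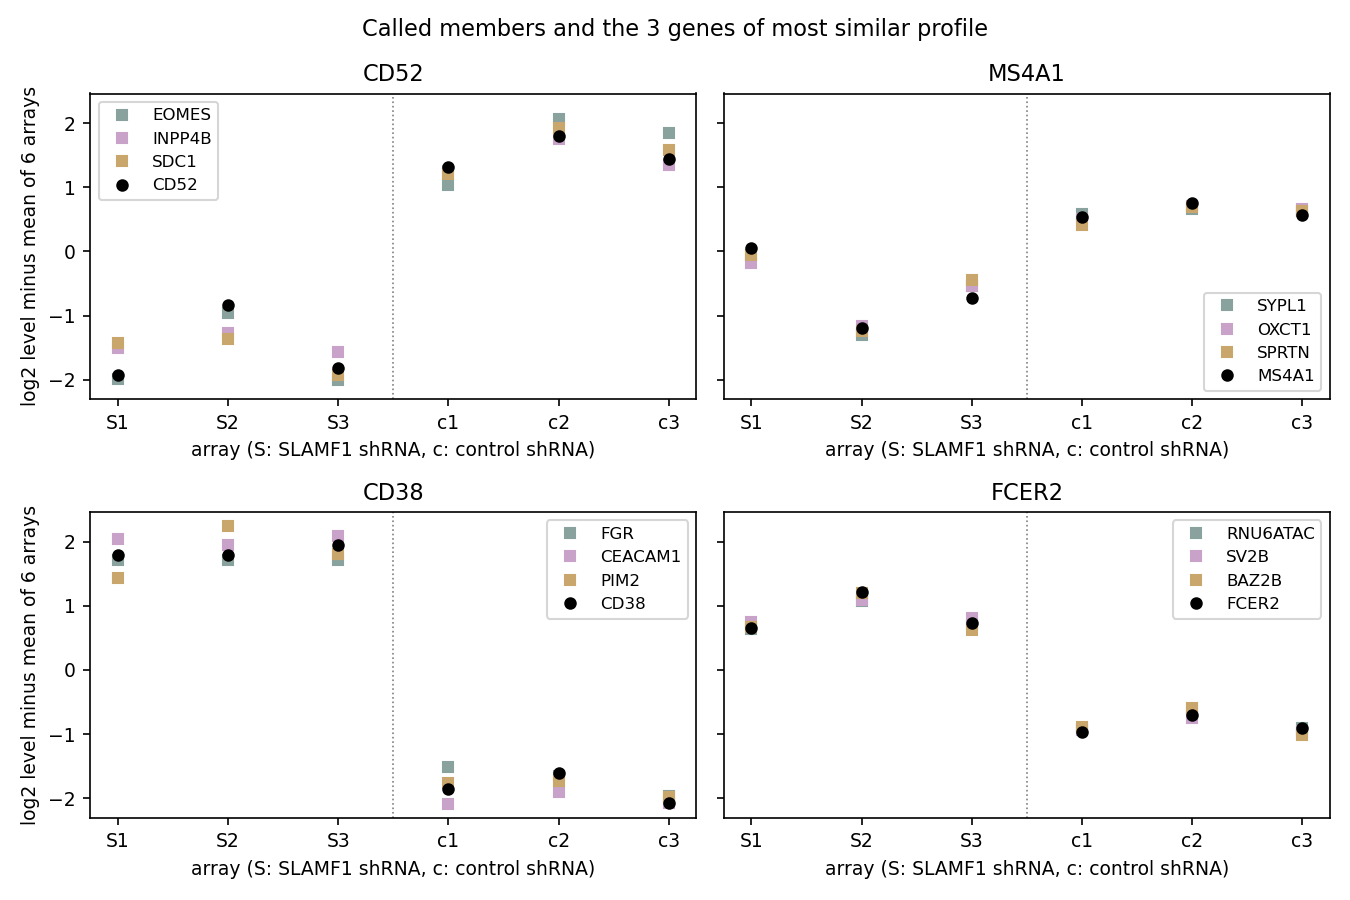
Log2 level minus the gene's mean over the 6 arrays (vertical axis) of the called members (black circles) and of the 3 genes of most similar profile (coloured squares), for the arrays labelled SLAMF1 shRNA (S1 to S3) and the control arrays (c1 to c3). CD52 and the genes nearest to it lie below 0 in S1 to S3 and above 0 in c1 to c3, and MS4A1 takes its lowest value in S2.

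The members also differed in how replicate 2 of the arrays labelled SLAMF1 shRNA read beside replicates 1 and 3. The gap was 1.03 for CD52 and 0.52 for FCER2, above the pair, and -0.86 for the called MS4A1 probe, below it, and lower still for the brightest MS4A1 probe, where 3.01% of kept probes had a lower gap. For CD38 it was -0.08 and for the CD37 probes 0.06 and 0.53. Over all kept probes the middle 90% ran from -1.33 to 1.13, so the brightest MS4A1 probe lay outside that range and the other tested probes lay inside it. In that array CD52 was thus nearer to the control arrays and MS4A1 farther from them than in replicates 1 and 3.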

How the data were processed

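The intensities deposited by the authors, 1 per probe and array, came from GenomeStudio, per the submitters' processing notes; its version is not given in the sources used here. Detection p-values were deposited beside them, per the file headers. A second deposited table of intensities matched the quantile-normalized signals (100% of values within 1%) and served as an alternative. All 6 arrays lay on 1 chip, control arrays in the first 3 positions, so group and chip position are confounded and cannot be told apart.

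Of 47323 probes, 2 had no value. Platform annotation gave 30113 probes 1 symbol, updated for 30074 through RefSeq (GRCh38.p14). Background was corrected with limma's nec (limma 3.58.1, R 4.3.3, offset 16), then log2 and quantile normalization. This scale understates changes of dim probes. Each of 19073 probes detected (p under 0.05) on at least 3 arrays was fitted with lmFit and eBayes on 6 arrays, with no covariate and Benjamini-Hochberg adjustment over all of them. An exact permutation test of 3 against 3 arrays cannot go below p = 0.1. "At least" folds compare the brighter group with, per array, the higher of the lowest detected level and the probe's own. They allow for detection only, not for the spread among arrays or the background model. Mean signals of 208 to 294 and the number of arrays limit precision.

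The members and lists were chosen with earlier results of these data known. Named were all member probes, SLAMF1, up to 3 called genes of each list with the largest change, and the 3 nearest profiles; other genes were named after their values were seen. No probe sequence was used here, and promoters of MS4A1, CD37 and CD5 are not shown.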

Additional observations from a re-analysis of the deposited data

How the results depend on the processing

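CD52 (lower), CD38 and FCER2 (higher) kept their call in all 19, 18 and 19 alternatives that tested them. No tested member probe changed sign. The called MS4A1 probe gave the same difference of -1.25 but missed the threshold with no filter on dim probes (adjusted p = 0.0997) and when replicate number entered as a replicate block (0.0543), and its difference ran from -1.58 to -0.96 when 1 array was left out. The brightest MS4A1 probe passed when every array had to reach a detection p under 0.01 (-1.45, adjusted p = 0.0493), 1 probe per gene (-1.45, 0.0422), the mean of a gene's probes (-1.35, 0.0267), an intensity trend (-1.45, 0.0480) and array weights (-1.12), and ran from -1.81 to -0.91 leaving out 1 array. The first CD37 probe passed without background correction (0.26), in the other deposited table (0.26), with no filter (0.37) and array weights (0.29), and the second with array weights (0.48). Array weights gave 1 array a weight of 28.4 and another 0.0882. Member probes called higher numbered 1 with the strict detection filter, which removes CD38, and 4 with array weights; those called lower numbered 1 with no filter and 1 with the block, and 1 to 3 leaving out 1 array. Over all kept probes, 1762 were called higher and 1796 lower, against 969 higher with median centring, 5325 and 5659 with array weights and 1139 lower with the strict filter. Leaving out 1 array gave 737 to 2909 higher and 731 to 2975 lower. The titles share replicate numbers, but deviations of same-numbered arrays correlated at -0.22, -0.13 and 0.23, so the block pairs arrays by number only. Of 628 recomputed differences of 34 other named genes, 574 kept direction and call, 53 lost the call, 1 gained it and 0 reversed. Array number and dim signals limit what can be seen for CD5 and the dimmest MS4A1 probe. The cause of these changes was not tested.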
